A study of Mus musculus with 6 samples.

Results

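The clustered protocadherins are cell-surface adhesion proteins of the cadherin superfamily, encoded by the alpha, beta and gamma gene clusters that lie next to each other on mouse chromosome 18. Members were all genes of the deposited count tables whose symbol starts with Pcdha, with Pcdhb and a digit, or with Pcdhga, Pcdhgb or Pcdhgc. This took 25 of 37620 genes: 2 rows of the alpha cluster, 22 of the beta cluster and 1 of the gamma cluster. No measured value was used to choose them.

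In the alpha and gamma clusters, each of many first exons has its own promoter and encodes a different extracellular domain, and each is spliced to the same constant exons for the end of the protein. A beta gene is a single large exon with its own promoter and uses no constant exon. In neurons, each cell uses a small set of promoters, binding of CTCF and cohesin to promoter and enhancer is part of that choice, and DNA methylation keeps other promoters silent. The proteins bind matching isoforms on neighbouring cells, and this allows a neurite to recognise its own branches.

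RNA was measured in mouse J1 cells in 3 groups of 2 libraries each, which the labels call biological replicates. The ESC group was wild-type J1 embryonic stem cells, kept with LIF and fetal bovine serum on MEF feeders (fibroblasts made unable to divide with mitomycin-C) and separated from the feeders before use. The NPC group was wild-type neural progenitors made from J1 ESC in culture and kept as such. The Phc1-KO group, derived from J1 ESC, is labelled with the genotype Phc1-/-, a knock-out of Phc1, which encodes a Polyhomeotic subunit of Polycomb repressive complex 1. The labels conflict for this group: the series title and design call it ESC, while its cell type entry reads NPC. The name Phc1-KO below therefore means the libraries so labelled, and the labels used here do not say whether they come from 1 clone. RNA was depleted of ribosomal RNA and sequenced as 50-base single-end reads.

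Gene counts per library ran from 15226214 to 21893821. The targeted gene, Phc1, was at 459.7 and 460.5 CPM (counts scaled by TMM-adjusted library size) in ESC, 40.8 and 34.6 in NPC, and 326.3 and 267.5 in Phc1-KO. It was thus lower but present in Phc1-KO (log2 difference from ESC -0.63, adjusted p = 0.0412 by edgeR), and since the labels do not place the deletion, these counts do not check it. The correlation of log CPM over genes, a description since genes are no replicates, was a Pearson r of 0.962 to 0.963 between Phc1-KO and ESC libraries and 0.766 to 0.788 between Phc1-KO and NPC libraries. The spread beyond counting noise was a coefficient of variation of 1.98% in the ESC pair, 27.5% in the NPC pair and 18.1% in the Phc1-KO pair. In Phc1-KO 2, 0.661 reads fell outside genes per read in a gene, against 0.839 to 1.09 in the other libraries. All 12 pluripotency markers were lower and 8 of the 10 tested neural progenitor markers higher in NPC than in ESC, none the other way. Of all genes tested, 30.9% were lower and 30.4% higher. In Phc1-KO the summed pluripotency markers were at 2422 and 2916 CPM, against 2427 and 2444 in ESC and 12.3 and 14.6 in NPC. All 12 were higher in Phc1-KO than in NPC. Against ESC, 1 of the 12 was called higher in Phc1-KO and 3 lower. Of the 10 tested neural progenitor markers, 1 was called higher and 3 lower in Phc1-KO than in ESC. The shares of all genes there were 4.91% higher and 5.75% lower.

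What a row of the tables holds differs between the clusters. In the mm9 annotation used here, GENCODE M1, the alpha row Pcdha11 (ENSMUSG00000007440) is a single model at chr18:37089939-37347311, plus strand, with 10 transcripts that start at 10 different places. Of these, 9 end within 5 kb of the model's end, so the row joins several first exons with the constant exons. The gamma row, Pcdhgc5 (ENSMUSG00000023036), is of the same kind: it spans chr18:37833989-38001527, plus strand, with 10 transcripts from 10 starts. It is therefore not a measure of the C-type isoform whose name it carries. The other alpha row, Pcdha3 (ENSMUSG00000091969), holds a single transcript at chr18:37105801-37108685, inside an intron of Pcdha11.

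The shared constant exons thus lie inside a row and not between rows, so first exons cannot be told apart and no value for an isoform was taken from them. RefSeq names 14 alpha, 22 beta and 22 gamma genes, of which 2, 22 and 1 had a row. With 10 starts each, the Pcdha11 and Pcdhgc5 rows hold fewer first exons than RefSeq names genes, so the alpha and gamma sums below are sums of these rows and may miss reads of other first exons. The C-type genes Pcdhac1, Pcdhac2, Pcdhgc3 and Pcdhgc4 had none. A read joining the Pcdha3 exon to the constant exons touches both alpha rows, and how the counting treated it is not given in the sources used here. On the opposite strand, Gm10545 shares 2790 exon bases with Pcdha11 and Gm16882 shares 1647 with Pcdhgc5. The strand setting is not given either, so reads of these pairs may be mixed or left out.

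The beta genes, at chr18:37424652-37681073 on the plus strand, are separate rows with no exon shared between them. They are similar in sequence: between 88.0% (Pcdhb12) and 100% (Pcdhb1) of the 50-base windows in a beta gene occur once in the genome. For the cluster models the share was 91.7% in Pcdha11 and 98.0% in Pcdhgc5, and in Pcdha3 it was 84.8%. Pcdhb20 is annotated as a pseudogene.

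The 3 clusters were all higher in NPC than in ESC, and none of them differed past the threshold between Phc1-KO and ESC. The summed alpha counts were 2.59 and 3.65 CPM in ESC, 35.7 and 41.6 in NPC, and 4.50 and 2.37 in Phc1-KO. The summed beta counts were 15.97 and 16.85 CPM in ESC, 419 and 446 in NPC, and 14.3 and 12.1 in Phc1-KO. The summed gamma counts were 94.0 and 92.6 CPM in ESC, 600 and 490 in NPC, and 121 and 60.4 in Phc1-KO. In each cluster both NPC libraries lay above the 4 others. For alpha and gamma, 1 Phc1-KO library lay above and 1 below both ESC libraries, while both beta sums of Phc1-KO lay below those of ESC.

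**Figure D1:**
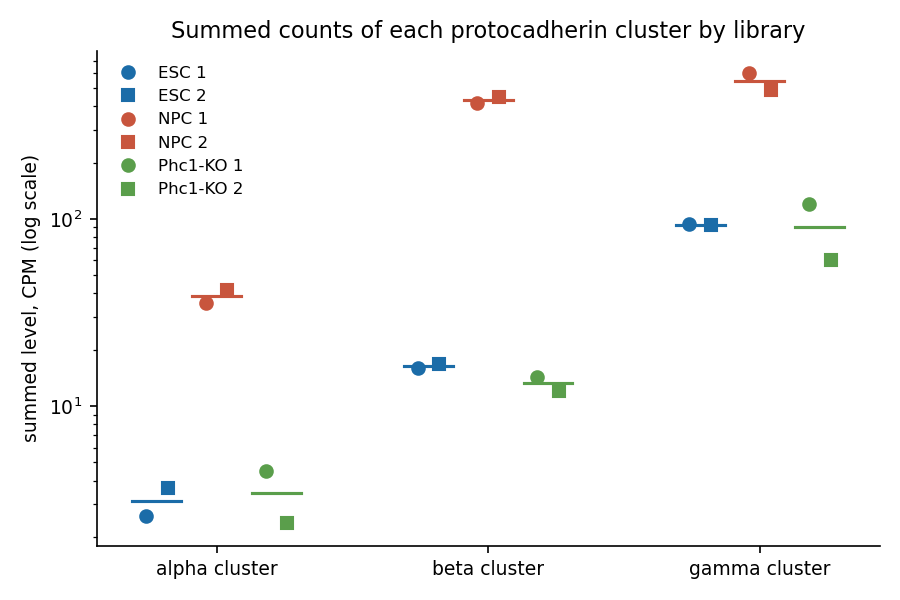
Summed CPM of the alpha, beta and gamma rows in each of the 6 libraries, on a log axis; points are libraries and short lines are group means over 2 libraries. The NPC points stand above all others in each cluster, and the gamma points of Phc1-KO 1 and 2, at 121 and 60.4 CPM, lie on either side of the ESC points.

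In a fit of all genes with each cluster as 1 row (edgeR quasi-likelihood F test, Benjamini-Hochberg adjustment over the 17468 rows tested), the log2 difference of NPC from ESC was 4.72 for beta (SE 0.15, adjusted p = 5.92e-06). It was 3.63 for alpha (SE 0.34, adjusted p = 1.69e-04) and 2.55 for gamma (SE 0.31, adjusted p = 4.86e-04). The difference between clusters was not itself tested. In bulk RNA, fewer cells of a type and less RNA per cell cannot be told apart, and this holds for every difference given here.

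The clusters' shares of all member counts shifted with the same libraries. Gamma held 83.5% and 81.9% of member counts in ESC, 56.9% and 50.1% in NPC, and 86.5% and 80.7% in Phc1-KO. Beta held 14.2% and 14.9% in ESC, 39.7% and 45.6% in NPC, and 10.3% and 16.1% in Phc1-KO. Alpha held between 2.30% and 4.26% in every library. The beta share in both NPC libraries was thus above all others and the gamma share below all others. All members together took 0.0116% of gene counts in both ESC libraries, 0.105% and 0.0982% in NPC, and 0.0139% and 0.00707% in Phc1-KO.

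Of the 25 members, 24 passed the low-count filter of the gene-by-gene test. Pcdhb1, the first beta gene, did not pass, with 2 and 0 counts in ESC, 8 and 1 in NPC, and 0 and 3 in Phc1-KO. The ESC and Phc1-KO libraries alone would have passed 10 members. The other 14 passed only through NPC, where they are high, so the counts of members called in comparisons with NPC describe the members and support nothing further. With at least 10 counts in both libraries required, 10 members were detected in ESC, 24 in NPC and 7 in Phc1-KO. The 10 of ESC were Pcdha11, Pcdhb14, Pcdhb16 to Pcdhb22 and Pcdhgc5. Those of Phc1-KO were Pcdha11, Pcdhb16, Pcdhb17, Pcdhb19, Pcdhb21, Pcdhb22 and Pcdhgc5.

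In NPC against ESC, 24 members were called higher and 0 lower at an adjusted p under 0.05, where 30.4% of all 17489 genes tested were called higher and 30.9% lower. The median log2 fold change of the 24 was 4.67, against -0.01 over all genes, and the range ran from 2.55 (Pcdhgc5) to 8.82 (Pcdhb11). Both NPC libraries were above both ESC libraries for 24 of the 25 members, with Pcdhb1 the exception, and for 41.8% of all genes tested. The 10 members that pass the filter without NPC were all called higher, with a median log2 fold change of 4.10 and a range of 2.55 to 4.95.

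Within the alpha cluster, Pcdha11 was at 2.53 and 3.59 CPM in ESC and at 34.0 and 39.4 in NPC. This row, which carries the constant exons, was 3.58 higher on the log2 scale in NPC (SE 0.36, adjusted p = 2.03e-04). Pcdha3, the separate first-exon row, had 1 count in each ESC library and 26 and 35 in NPC, a ratio of 32.5 with a 95% counting interval of 8.63 to 275. Its fitted log2 fold change was 4.87 (SE 0.67, adjusted p = 8.11e-04). Per kb of exon in NPC, Pcdha3 was at 0.701 and 0.932 CPM and Pcdha11 at 1.55 and 1.80, so the row with the constant exons was higher in both libraries.

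Pcdhgc5, the gamma row, was the highest member per kb of countable exon (exon bases that belong to 1 gene only) in every library. It was at 3.44 and 3.39 CPM per kb in ESC, 21.9 and 17.9 in NPC, and 4.41 and 2.21 in Phc1-KO. Its log2 fold change of 2.55 in NPC over ESC (SE 0.31, adjusted p = 4.83e-04) was the smallest of the 24 tested members.

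Among the beta genes, all 21 tested were called higher in NPC than in ESC, with a median log2 fold change of 4.71 and a range of 3.50 to 8.82. Pcdhb11 had 3 and 1 counts in ESC, 859 and 940 in NPC, and 2 and 0 in Phc1-KO. In CPM it was 0.185 and 0.0608 in ESC against 56.5 and 61.0 in NPC, so it went from among the lowest beta genes to among the highest. Its log2 fold change was 8.82 (SE 0.45, adjusted p = 1.82e-05), the largest of the tested members.

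The other 4 beta genes with the largest fitted changes were also close to 0 in ESC. Pcdhb13 had 1 and 0 counts in ESC and 161 and 204 in NPC, a ratio of 389 with a 95% counting interval of 69.5 to 15422. Pcdhb9 had 0 and 1 counts in ESC and 104 and 138 in NPC, a ratio of 258 with an interval of 45.9 to 10239. Both ratios rest on a single ESC read, which is why their intervals are so wide. Pcdhb5 had 1 count in each ESC library and 233 and 162 in NPC, a ratio of 211 with an interval of 57.9 to 1746. Pcdhb10 had 1 count in each ESC library and 180 and 135 in NPC, a ratio of 168 with an interval of 46.1 to 1393. The order of these 4 is not resolved at this depth, since their intervals overlap.

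The beta genes with the most RNA in NPC included some that were already measurable in ESC. Pcdhb19 was at 2.04 and 2.37 CPM in ESC and 53.8 and 61.8 in NPC, a log2 change of 4.71 (SE 0.29, adjusted p = 3.40e-05). Pcdhb16 was at 2.04 and 2.55 CPM in ESC and 41.8 and 58.6 in NPC, a log2 change of 4.45 (SE 0.30, adjusted p = 4.34e-05). Per kb of countable exon in NPC the order was Pcdhb11 (15.6 and 16.9 CPM per kb), Pcdhb22 (8.92 and 11.4), Pcdhb16 (7.93 and 11.1), Pcdhb17 (7.32 and 9.24) and Pcdhb19 (7.54 and 8.66). Pcdhb11 lay apart from the rest in both libraries, while each of the 4 that followed overlapped the next in range. At the other end, Pcdhb4 was at 1.72 and 1.17 CPM per kb and Pcdhb1 at 0.214 and 0.0264.

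**Figure D2:**
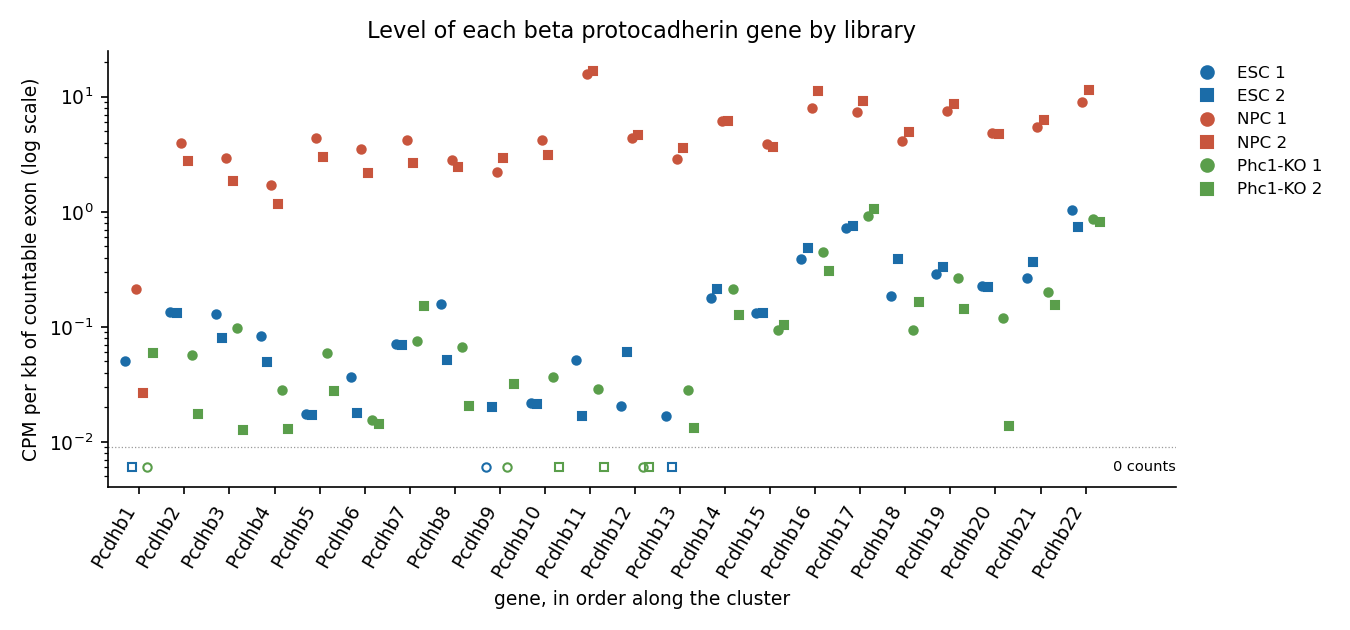
CPM per kb of countable exon for the 22 beta genes in their order along the cluster, on a log axis, with 1 point per library; open points under the dotted line are libraries with 0 counts. NPC points lie above the others for every gene but Pcdhb1, and in ESC and Phc1-KO the highest points are those of Pcdhb17 and Pcdhb22.

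Position along the beta cluster went with level in every library. Spearman's rho between a gene's order and its CPM per kb, over the 22 beta genes, was 0.63 and 0.69 in ESC, 0.67 and 0.84 in NPC, and 0.67 and 0.51 in Phc1-KO. These are descriptions over genes that share a library, a locus and an origin by duplication, and low counts at the start of the cluster enter them. The 7 genes from Pcdhb16 to Pcdhb22, a block chosen after the values were seen, held 78.4% and 83.4% of beta counts in ESC, 50.2% and 57.5% in NPC, and 81.8% and 84.4% in Phc1-KO. The 13 genes from Pcdhb1 to Pcdhb13 held 15.4% and 10.1% in ESC, 42.2% and 35.5% in NPC, and 11.3% and 9.60% in Phc1-KO. In NPC the early block was thus a larger part of the beta counts than in either library of the other groups.

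Summed over a block, Pcdhb1 to Pcdhb13 went from 2.47 and 1.70 CPM in ESC to 177 and 158 in NPC, a ratio of means of 80.3. Pcdhb16 to Pcdhb22 went from 12.5 and 14.1 CPM to 210.1 and 256.4, a ratio of 17.6. Gene by gene, the rise in the first block was uneven. Pcdhb2, Pcdhb3, Pcdhb4 and Pcdhb8 had ratios of 25.4, 22.7, 21.9 and 25.2, inside the second block's range of 11.3 (Pcdhb17) to 26.2 (Pcdhb19). Pcdhb1 was at 4.80, and the other genes of the first block ran from 48.9 (Pcdhb7) to 480 (Pcdhb11). Phc1-KO had 1.62 and 1.16 CPM in the first block and 11.7 and 10.2 in the second, both below ESC in both libraries. The difference between blocks was not tested, because the blocks were picked from these values.

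Counts were also spread over more beta genes in NPC. The 5 highest beta genes held 67.6% and 68.6% of beta counts in ESC, 49.0% and 55.2% in NPC, and 75.5% and 78.0% in Phc1-KO. Pcdhb16, Pcdhb19 and Pcdhb22 were among these 5 in every library. Pcdhb11 joined them in NPC and in no library of another group. Pcdhb17 was the highest beta gene by counts in both Phc1-KO libraries, with 20.8% and 28.8% of beta counts.

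The NPC libraries differed from each other in an ordered way along the cluster. NPC 1 had more CPM than NPC 2 for all 7 genes from Pcdhb2 to Pcdhb8. NPC 2 had more for 6 of the 7 from Pcdhb16 to Pcdhb22, with Pcdhb20 the exception. Both stretches were chosen after the values were seen, so these counts are descriptions. The log2 ratio of NPC 1 to NPC 2 ran from 0.70 (Pcdhb6) to -0.49 (Pcdhb16). Between the stretches both signs occurred, as for Pcdhb9 (-0.39) and Pcdhb10 (0.43). Spearman's rho between order and ratio was -0.72 over the 21 tested beta genes. The 95% counting interval, which covers counting error only, lay above 0 for 7 of the 21 genes, below 0 for 7 and across 0 for 7. The same shares over all genes were not computed. Genes in general also differed between these libraries: chi-square per gene was 47.0 over all genes and 14.8 over 24 members. Pcdhgc5 was higher in NPC 1 (log2 ratio 0.29, interval 0.25 to 0.34) and Pcdha11 in NPC 2 (-0.21, interval -0.38 to -0.04). The pattern is that of 2 libraries, and no design term separates them.

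**Figure D3:**
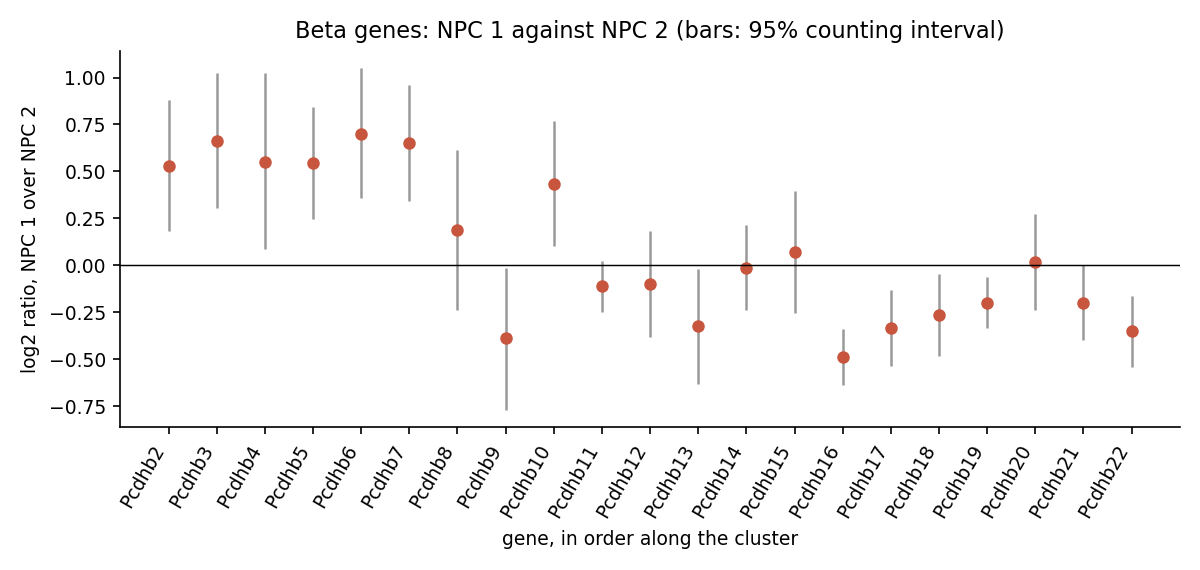
Log2 ratio of CPM in NPC 1 over NPC 2 for the 21 tested beta genes in their order along the cluster; bars are exact 95% intervals for counting error only. Ratios are above 0 from Pcdhb2 to Pcdhb8 and below 0 for 6 of the 7 genes from Pcdhb16 to Pcdhb22. Both stretches were chosen after the values were seen.

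Phc1-KO against ESC addresses, per the series design, how cells with the Phc1-/- label differ from wild-type stem cells. By edgeR's quasi-likelihood test 0 members were called higher and 0 lower, where 4.91% of all genes were called higher and 5.75% lower. DESeq2 also called 0. Of the 24 members tested, 14 passed the filter only through NPC, and their low counts in ESC and Phc1-KO left little room for a call. At an unadjusted p under 0.05 there were 5 of 24, all lower: Pcdhb2, Pcdhb12, Pcdhb18, Pcdhb20 and Pcdhb21. The share of all genes under this unadjusted threshold is not given here, so the 5 describe the members only. Of these, Pcdhb2 and Pcdhb12 passed the filter only through NPC. The median log2 fold change of the 24 was -0.33, against 0.00067 over all genes, with 6 members above 0 and 18 below. Over the 10 members that pass the filter without NPC the median was -0.22, with 2 above 0 and 8 below. Both Phc1-KO libraries were above both ESC libraries for 3 of the 25 members and below both for 9. Over all genes tested the shares were 32.6% above and 34.2% below, so the count of 9 is near the general share and the count of 3 is under it.

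The cluster sums bound the size of a difference. The log2 difference of Phc1-KO from ESC was 0.13 for alpha (95% interval -0.68 to 0.95, adjusted p = 0.829 by edgeR). For beta it was -0.31 (interval -0.64 to 0.02, adjusted p = 0.191), and for gamma -0.04 (interval -0.75 to 0.66, adjusted p = 0.939). The beta interval was the narrowest, and it leaves out a rise of the size seen in NPC, as do those of alpha and gamma. The alpha and gamma values changed sign with the library left out: alpha was -0.39 without Phc1-KO 1 and -0.09 without ESC 1, and gamma was 0.37 without Phc1-KO 2.

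**Figure D4:**
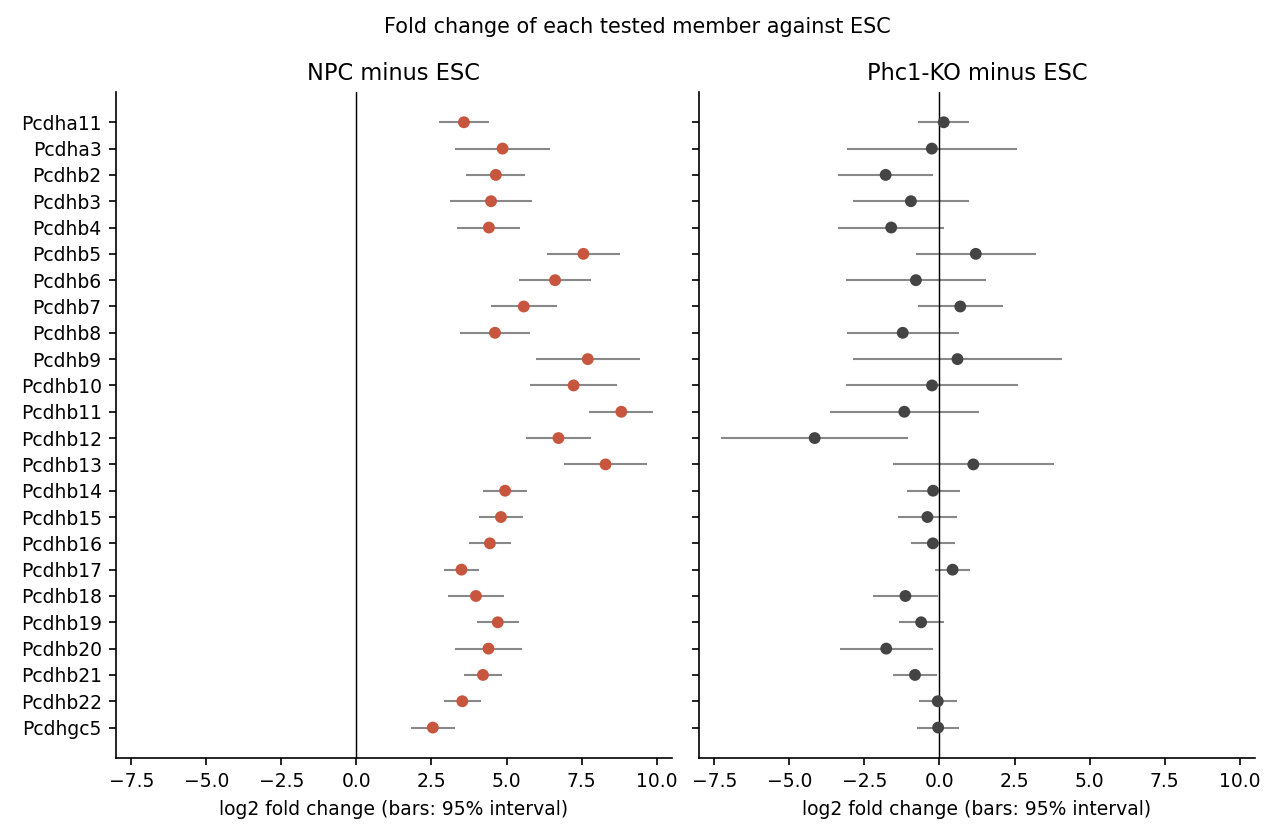
Log2 fold change with its 95% interval (edgeR, 24 tested members in cluster order) for NPC minus ESC and Phc1-KO minus ESC; coloured points have an adjusted p under 0.05 and dark points do not. All 24 points are coloured on the left and none on the right, where Pcdhb12 had 0 counts in Phc1-KO, so its fitted value of -4.16 is no measure of size.

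Of the 7 members detected in both groups, some crossed between the libraries and some did not, and none was called. Pcdha11 was at 4.50 and 2.27 CPM in Phc1-KO, on either side of its 2.53 and 3.59 in ESC. Pcdhb16 was at 2.36 and 1.60 CPM against 2.04 and 2.55, a log2 change of -0.22 (SE 0.31, adjusted p = 0.677). Pcdhb19 was at 1.89 and 1.02 CPM against 2.04 and 2.37, a log2 change of -0.61 (SE 0.32, adjusted p = 0.252), with both Phc1-KO libraries below both of ESC. Pcdhb21, named after its values were seen, also lay below ESC in both libraries, at 0.943 and 0.726 CPM against 1.23 and 1.70 (log2 fold change -0.82, adjusted p = 0.135). Pcdhgc5, with 2304 and 1249 counts in Phc1-KO, had a log2 change of -0.04 (SE 0.30, adjusted p = 0.939). Its 2 Phc1-KO libraries, at 121 and 60.4 CPM, differed from each other more than the groups did. They are also the pair that differed in reads outside genes, at 1.08 and 0.661 per read in a gene, whose part in the result was not tested.

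A few other beta genes, named after their values were seen, mark the edges of this comparison. Pcdhb20, the annotated pseudogene, was at 0.802 and 0.791 CPM in ESC and 0.419 and 0.0484 in Phc1-KO, that is 13 and 13 counts against 8 and 1. Its log2 fold change was -1.77 (SE 0.66, adjusted p = 0.126). Without Phc1-KO 1 it was called lower, at -3.84 (adjusted p = 0.0389), which rests on the library with 1 count. Pcdhb17 was at 2.34 and 2.43 CPM in ESC and 2.99 and 3.48 in Phc1-KO, above ESC in both libraries, with a log2 change of 0.44 (SE 0.24, adjusted p = 0.277). Pcdhb11 and Pcdha3 had at most 3 counts in any ESC or Phc1-KO library, so no difference was detectable at this depth.

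Phc1-KO against NPC gave the reverse of NPC against ESC, with which it shares the NPC libraries. In it 0 members were called higher and 24 lower, where 32.3% of all genes were called higher and 32.7% lower. The median log2 fold change was -5.38, against -0.00406 over all genes. By cluster sum the log2 difference was -5.03 for beta, -3.50 for alpha and -2.59 for gamma, with adjusted p of 4.45e-06, 1.67e-04 and 4.14e-04 by edgeR. Both Phc1-KO libraries were below both NPC libraries for 24 of the 25 members, with Pcdhb1 again the exception, and for 40.5% of all genes tested.

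The largest differences were those of beta genes with at most 3 counts over the Phc1-KO group. Pcdhb12 had 202 and 219 counts in NPC and 0 in both Phc1-KO libraries, so its ratio has no estimate. The 95% counting interval gives a lower bound of 148-fold, and a floor of 3 counts over the Phc1-KO group gives 182-fold. Pcdhb11 fell from 1799 counts over both NPC libraries to 2 over both Phc1-KO libraries, a ratio of NPC to Phc1-KO of 1169 with a lower counting bound of 323. Pcdhb10 and Pcdhb6 had 2 counts each over the Phc1-KO group, and the same ratio was 205 (lower bound 56.2) and 193 (lower bound 52.9). Pcdhb13 had 3, with a ratio of 158 (lower bound 53.7). With the floor of 3 counts, the ratios of Pcdhb11, Pcdhb10 and Pcdhb6 were 779, 136 and 129. The smallest differences, with Pcdhgc5 at -2.59 and Pcdhb17 at -3.06 on the log2 scale, were those of genes that kept a measurable level in Phc1-KO.

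The annotated genes around and between the clusters, a set chosen after values of these data were known, were called in both directions in NPC. Of 17 such genes, 14 were tested: 3 were called higher in NPC than in ESC, 5 lower and 6 neither. Of all genes tested, 30.4% were called higher and 30.9% lower in NPC against ESC, so these counts are near the general shares. In Phc1-KO against ESC the general shares were 4.91% and 5.75%, and in Phc1-KO against NPC 32.3% and 32.7%. The counts of each list below stand beside the same shares, and no list was tested as a set. Taf7, a subunit of the general transcription factor TFIID that lies between the beta and gamma clusters, was at 198 and 203 CPM in ESC and 25.3 and 39.4 in NPC (log2 fold change -2.63, SE 0.25, adjusted p = 1.78e-04). Diap1, a formin that nucleates actin filaments, lies beyond the gamma cluster and was lower, with a log2 fold change of -1.93. Slc25a2, a mitochondrial carrier between beta and gamma, was lower (-1.10), as were Arap3 (-1.25) and Zmat2 (-0.55). The 3 higher genes were the opposite-strand models Gm10544 (4.18), Gm10545 (3.08) and Gm16882 (1.39). Gm10545 and Gm16882 share exon bases with Pcdha11 and Pcdhgc5, so their reads may not be apart from the members' reads. In Phc1-KO against ESC, 1 of the 14 was called, Arap3, at -1.28 (adjusted p = 0.0443).

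A list of related genes outside the clusters held single-gene protocadherins, which mediate adhesion, and the Fat, Dchs and Celsr cadherins, known from planar cell polarity. In NPC against ESC, 15 of the 19 tested were called higher and 3 lower. Of the 11 tested Pcdh genes 10 were higher and 0 lower, and of the 8 Fat, Dchs and Celsr genes 5 were higher and 3 lower. Pcdh10 was at 0.0617 and 0.182 CPM in ESC and 47.2 and 31.0 in NPC, a log2 fold change of 8.23. Pcdh12 (7.33), Pcdh17 (6.07) and Pcdh11x (5.70) were also higher. Fat2, a giant cadherin, was lower (-5.50). In Phc1-KO against ESC only Pcdh8 was called of the 19, at 0.247 and 0.547 CPM in ESC and 1.466 and 1.5 in Phc1-KO (log2 fold change 1.88, adjusted p = 0.0450). In Phc1-KO against NPC 2 were higher and 14 lower, led by Pcdh12 at -8.73, Pcdh10 at -6.12, Pcdh18 at -5.33, Pcdh11x at -5.25 and Fat3 at -5.23.

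Classical cadherins, which bind through catenins to actin, moved in both directions in NPC, with 9 of 14 higher and 3 lower than in ESC. Cdh1, the epithelial cadherin of stem cells, was at 576 and 545 CPM in ESC, 0.789 and 1.04 in NPC, and 577 and 473 in Phc1-KO. Its log2 fold change in NPC was -9.25. Cdh3 was also lower in NPC (-7.35), while Cdh20 (6.85), Cdh6 (5.55) and Cdh22 (5.22) were higher. In Phc1-KO against ESC, Cdh11 was called higher (1.97, adjusted p = 0.0434) and Cdh3 lower (-0.999, adjusted p = 0.0120). Of 6 tested catenins, Ctnna2 (5.02) and Ctnnd2 (4.85), both known from neurons, were higher and Ctnna1 (-0.74) lower in NPC, and 0 were called in Phc1-KO against ESC, where the smallest adjusted p was that of Ctnna2 (0.0613).

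In the lists of CTCF and cohesin genes and of silencing factors, more genes were lower than higher in NPC. For CTCF, cohesin and its loading and release factors, 7 of 12 were lower and 1, the loader Mau2 (0.51), higher. Ctcf itself was at 257 and 249 CPM in ESC, 159 and 143 in NPC, and 300 and 277 in Phc1-KO, a log2 fold change of -0.75 in NPC (SE 0.12, adjusted p = 0.00181). Wapal, which releases cohesin, was lower, at -1.06, as were Smc3, a core subunit of the ring (-1), and Pds5a (-0.91). Ctcfl, the germline paralog of Ctcf, was lower (-3.81) but was at most 0.678 CPM in ESC. None of the 12 was called in Phc1-KO against ESC.

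Of 13 silencing factors, 8 were lower and 1 higher in NPC than in ESC. The de novo methylation genes led: Dnmt3l was at 108 and 103 CPM in ESC and 0.0658 and 0.130 in NPC (log2 fold change -9.97), and Dnmt3b at 428 and 426 against 5.46 and 6.95 (-6.10). Trim28, a corepressor that recruits Setdb1, was lower (-2.05), as were Rest, a repressor of neuronal genes (-1.73), and Uhrf1, which keeps methylation through replication (-1.69). Dnmt3a was the exception, higher in NPC with a log2 fold change of 1.08. Smchd1, a chromatin protein known to silence the clusters, was at 332 and 321 CPM in ESC and 258 and 249 in NPC and missed the threshold (-0.36, adjusted p = 0.0518). In Phc1-KO against ESC, Dnmt3a was the single one called, at 147 and 145 CPM in ESC and 417 and 422 in Phc1-KO (log2 fold change 1.53, SE 0.13, adjusted p = 0.00244).

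**Figure D5:**
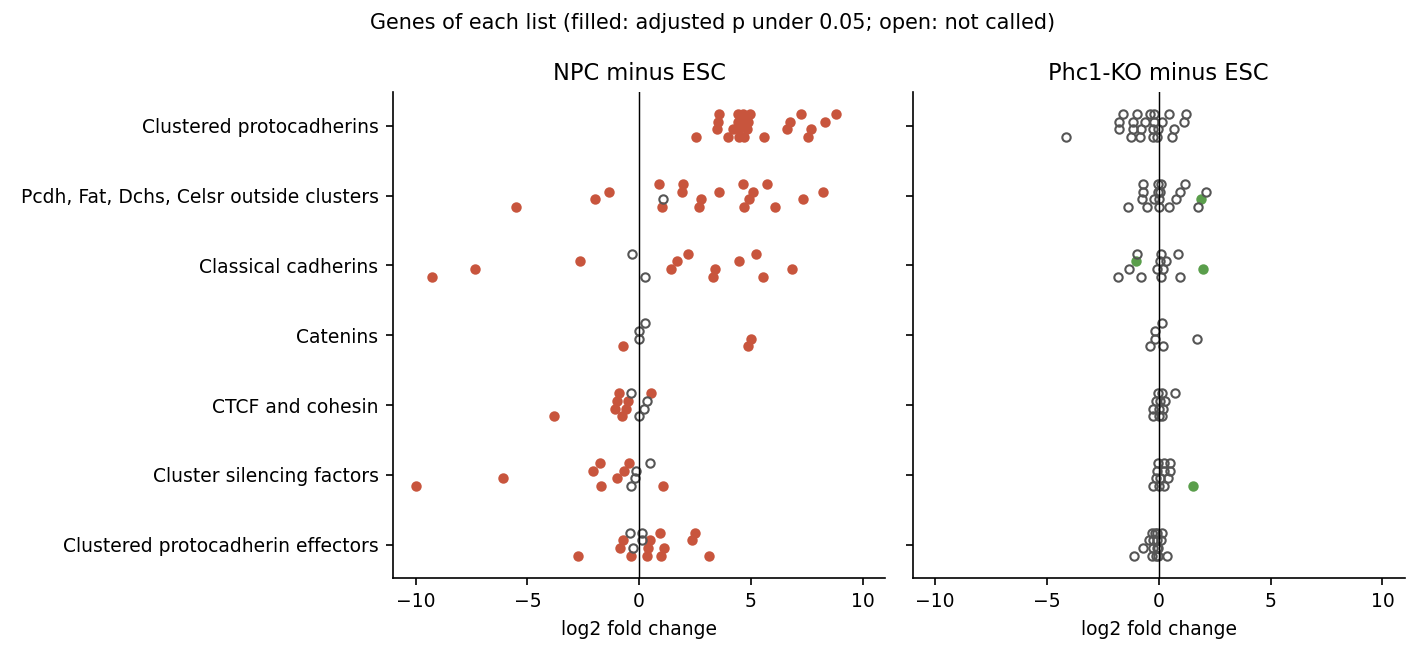
Log2 fold change of each tested gene of the clustered protocadherins and of 6 lists (the first holds Pcdh, Fat, Dchs and Celsr genes outside the clusters), for NPC minus ESC and Phc1-KO minus ESC; filled points have an adjusted p under 0.05, and height within a row has no meaning. In NPC the clustered protocadherins lie above 0 and most CTCF, cohesin and silencing genes at or below it, and in Phc1-KO 4 list genes are filled: Pcdh8, Cdh11, Cdh3 and Dnmt3a.

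The proteins that process or signal from clustered protocadherins were mixed, with 9 of 17 higher and 4 lower in NPC. Prkca, of the protein kinase C family that phosphorylates the constant domain of the gamma proteins, was at 12.2 and 12.8 CPM in ESC and 108 and 111 in NPC (log2 fold change 3.13). Adam10, the protease that sheds the extracellular part, was at 61.7 and 63.6 CPM in ESC and 389 and 263 in NPC (2.38). Fyn (2.48) and Ret (1.13), tyrosine kinases, were also higher. Ptk2b, whose kinase activity clustered protocadherins hold in check, was lower (-2.72). In Phc1-KO against ESC, 0 of the 17 were called.

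In Phc1-KO against NPC, where 32.3% of all genes tested were called higher and 32.7% lower, these lists ran as follows. Of the cadherins 3 were higher and 10 lower, led by Cdh1 (9.15), Cdh20 (-7.66), Cdh22 (-7.02), Cdh3 (6.35) and Cdh6 (-4.59). Of the catenins 1 was higher, Ctnna1 (0.56), and 3 lower, Ctnnd2 (-4.67), Ctnna2 (-3.30) and Jup (-0.67). Among CTCF and cohesin genes 6 were higher and 1 lower, and the 5 largest were all higher: Ctcfl (4.55), Wapal (1.08), Smc3 (1.08), Ctcf (0.94) and Pds5a (0.86). Of the silencing factors 9 were higher and 0 lower, led by Dnmt3l (10.22), Dnmt3b (6.63), Trim28 (2.45), Rest (2.22) and Uhrf1 (1.94). Of the effectors 2 were higher and 7 lower, led by Prkca (-2.77), Fyn (-2.77), Adam10 (-2.43), Ptk2b (2.27) and Ret (-1.82).

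Markers of other cell types were also measured, and the lists differed in how they went with the members. Of all genes tested, 30.4% were called higher and 30.9% lower in NPC against ESC, and 4.91% and 5.75% in Phc1-KO against ESC. The summed level of 13 fibroblast markers was 536 to 544 CPM in ESC, 7344 to 11874 in NPC and 1327 to 1435 in Phc1-KO, and 10 of 13 were called higher and 1 lower in NPC than in ESC. In Phc1-KO against ESC 6 of the 13 were higher and 0 lower. The 8 astrocyte markers summed to 386 to 397 CPM in ESC, 1450 to 2591 in NPC and 540 to 543 in Phc1-KO, and 6 were higher and 0 lower in NPC. The 8 oligodendrocyte markers summed to 54.0 to 57.4, 426 to 520 and 132 to 179 CPM, with 3 higher and 1 lower in NPC. The 16 neuron markers summed to 226 to 239, 131 to 261 and 271 to 275 CPM. Of 15 tested, 5 were higher and 4 lower in NPC. In Phc1-KO against ESC, 1 astrocyte marker was called higher and 2 lower, with a median log2 fold change of -0.31 over the 8. Of the oligodendrocyte markers 1 was called higher and 0 lower there, and of the neuron markers also 1 and 0. No marker of these 4 lists was at 0 in both libraries of a group, and their part in the members' rise was not tested.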

How the data were processed

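RNA-seq of 6 libraries was analysed, 2 each of ESC, NPC and Phc1-KO. The deposited files hold raw read counts for each Ensembl gene; the authors used STAR, HTSeq and mm9, per the submitters' processing notes. Not given in the sources used here are versions, annotation release, counting mode and strand setting. Symbols, exons and positions came from GENCODE M1 for mm9, which named 37205 of 37620 genes; 415 had no symbol and could not be searched for members. Reads given to no gene were left out; reads called ambiguous were 3.23% to 3.82% of gene plus ambiguous counts.

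edgeR 4.0.16 in R 4.3.3 tested each gene (quasi-likelihood F test, TMM scaling, filterByExpr with a minimum count of 10 and total of 15). All 6 libraries entered 1 fit with 1 term per group and 3 residual degrees of freedom, so the groups share the spread. P values were adjusted by Benjamini-Hochberg over all genes tested, and SE is the log2 fold change divided by the square root of F. A second fit replaced the members with 3 cluster sums. The tests were checked on simulated counts with the same spread in all groups, so that check does not cover the unequal spread of these pairs. Counting intervals are exact binomial at 95% and, like the floor of 3 counts, cover counting error only, since reads carry no molecular identifiers. Uniqueness of 50-base windows was computed on the mm9 genome.

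The ESC libraries differed slightly beyond counting noise (chi-square 1.44 per gene, against 47.0 in the NPC pair and 48.8 in the Phc1-KO pair). They were counted as 2 because the labels call them biological replicates. The chi-square cannot tell separate cultures from libraries made from the same RNA. Replicate numbers did not pair the libraries (r of replicate differences between -0.021 and 0.020).

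Named were, per cluster, the 3 members with the highest mean CPM and the 5 largest changes that passed per comparison, and of the other lists all that passed or the 5 largest. Other genes were named after their values were seen. The members and lists were chosen with earlier results of these data known. Planned sums by isoform subclass were not run, since the rows do not separate subclasses. Alternatives were DESeq2 1.42.0, other scalings, no low-count filter, fits of 2 groups, a replicate block, each library left out, and the ESC pair as 1 library. Sequences are not printed. Figures used matplotlib 3.10.9.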

Additional observations from a re-analysis of the deposited data

How the results depend on the processing

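The 24 members called higher in NPC than in ESC and the 24 called lower in Phc1-KO than in NPC stayed at 24 under DESeq2, DESeq2 size factors, total-count scaling, no low-count filter, fits of 2 groups, the replicate block, each library left out and the ESC pair as 1 library. The cluster sums kept their direction and calls there too: NPC minus ESC ranged over these settings from 4.67 to 4.77 for beta, 3.39 to 3.88 for alpha and 2.39 to 2.69 for gamma. With the replicate block, whose numbers do not pair the libraries, the beta sum was 4.72 in NPC minus ESC and -0.31 in Phc1-KO minus ESC, and the block changed no call. In Phc1-KO minus ESC, members called lower ranged from 0 to 1 with a library left out; the 1 was Pcdhb20 without Phc1-KO replicate 1. With a library left out, the alpha sum ranged from -0.39 to 0.53, turning sign without ESC replicate 1 (-0.09) and Phc1-KO replicate 1 (-0.39). The gamma sum ranged from -0.62 to 0.37, turning without Phc1-KO replicate 2 (0.37). Pcdha11 turned likewise (-0.08 and -0.42; range -0.42 to 0.56). So did Pcdha3 without Phc1-KO replicate 1 (0.61; range -3.19 to 0.61), and without Phc1-KO replicate 2 Pcdhb16 (0.0402; range -0.52 to 0.0402) and Pcdhgc5 (0.37); the cause was not tested. The fit of ESC and Phc1-KO alone tested 10 members. Over all genes, the shares called higher and lower in Phc1-KO minus ESC moved with the setting. They were 4.91% and 5.75% in the main fit, 3.64% and 4.52% with the replicate block, and 10.7% and 12.6% in the fit of 2 groups. Both shares were below all of these with the ESC pair as 1 library, without either ESC library and without Phc1-KO replicate 2. Those fits leave 1 library in a group, so a count of 0 members called says little there. Calls of genes outside the members in Phc1-KO minus ESC are given for the main fit only, which counts the ESC pair as 2 replicates. With a minimum of 30 counts, 6 members were detected in ESC in place of 10. Levels per kb of unique windows, an alternative added after the data were seen, moved a member's rank in NPC by at most 2 places. Depth limits the beta genes before Pcdhb14, with at most 11 counts in any ESC or Phc1-KO library.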
